A study of Mus musculus with 24 samples.

Results

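The genes described here are Ttpa and 9 genes of antioxidant defence, Gpx1, Gpx3, Gpx4, Slc7a11, Gclc, Gclm, Txnrd1, Srxn1 and Nqo1, in mouse mammary tumours. These 10 genes were taken by symbol from the 46318 gene IDs of the count files, and all 10 were among the 15820 genes that passed the filter on low counts. Ttpa was selected on its measured difference between the groups compared here, as 1 of 50 genes past the threshold, so that difference is given as a description without a test. The other 9 were named for their function, with earlier results of these data known. The data are bulk RNA sequencing of 24 tumours from MMTV-PyMT mice, in which a mouse mammary tumour virus promoter drives the polyoma middle T oncogene in mammary epithelium. The labels place 12 libraries in the genotype SHP KO (the design's NR0B2-/- PyMT+ colony) and 12 in SHP WT (its NR0B2+/+ PyMT+ colony). Nr0b2 encodes SHP, an orphan nuclear receptor that represses bile acid synthesis genes. Every tumour carried the PyMT transgene, and tumours of both genotypes were collected at a set volume. The sources used here do not give age, strain background or how many animals gave the tumours, so p-values measure the spread among the tumours sampled, part of which may be technical.

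Vitamin E is a lipid-soluble antioxidant that stops the chain reaction of lipid peroxidation in membranes. Ttpa encodes the alpha-tocopherol transfer protein, best known from hepatocytes, where it moves alpha-tocopherol out of the endosomal pathway for secretion with lipoproteins, and its loss in humans causes ataxia with vitamin E deficiency. A parallel defence is built on glutathione. System xc-, whose light chain is Slc7a11, imports cystine, the glutamate-cysteine ligase subunits Gclc and Gclm make the precursor of glutathione, and glutathione peroxidases spend it on peroxides. Txnrd1 and Srxn1 serve the thioredoxin and peroxiredoxin arm, and Nqo1 reduces quinones. Slc7a11, Gclc, Gclm, Txnrd1, Srxn1 and Nqo1 are classical targets of the transcription factor NRF2, which binds antioxidant response elements.

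Between 18789250 and 38022182 reads were counted per library, so that 3 reads, taken as the floor, stand for 0.0789 to 0.16 CPM (reads scaled to a common library total). Levels below are CPM after TMM scaling, a correction of library totals. The targeted gene went against the labels, with 182 Nr0b2 reads over the libraries labelled KO, 3 to 71 each, and 1 over those labelled WT. Which part of Nr0b2 was read cannot be seen from counts per gene, so the groups are called by their labels throughout. Markers of luminal epithelium were present in every tumour, with 8 of 8 tested and a summed level of 3728 to 9261 CPM in libraries labelled KO and 4070 to 7392 CPM in those labelled WT. A pair of libraries stood apart. KO 11 held the highest summed levels of skeletal muscle markers (6101 CPM, against a median of 215 CPM over the libraries labelled KO) and of erythroid markers (1332 CPM, against a median of 189 CPM). In KO 12 short genes read high and long genes read low, by 0.34 on the log2 scale for each doubling of exon length, whereas this length tilt lay between -0.04 and 0.03 in the other libraries labelled KO and between -0.02 and 0.10 in those labelled WT.

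Ttpa was transcribed in every tumour, and its level was higher in the libraries labelled KO. Ttpa (gene ID 50500) lies on the plus strand of chromosome 4 at 20007867 to 20030822 (GRCm39, the build of the count files), 113 Mb from the start of Nr0b2 on the same chromosome, with 3403 bases of exon. Its lowest, median and highest levels were 34.9, 56.7 and 71.1 CPM in the libraries labelled KO (KO 2 lowest, KO 12 highest), against 22.8, 32.3 and 58.5 CPM in those labelled WT (WT 17 lowest, WT 14 highest). All 12 libraries labelled KO lay above the median of those labelled WT. The ranges overlapped all the same, because 4 libraries labelled WT lay above KO 2. Leaving aside WT 14, the next highest library labelled WT held 46.6 CPM, and 10 of the 12 labelled KO lay above it. The means were 56.0 ± 10.6 CPM labelled KO and 34.8 ± 9.48 CPM labelled WT (SD, n = 12 each), a log2 difference of 0.69 ± 0.13 (SE) or 1.61-fold. In the authors' deposited table the log2 fold change of Ttpa was 0.68. In bulk tissue, more cells that transcribe a gene and more RNA in each such cell cannot be told apart.

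**Figure D1:**
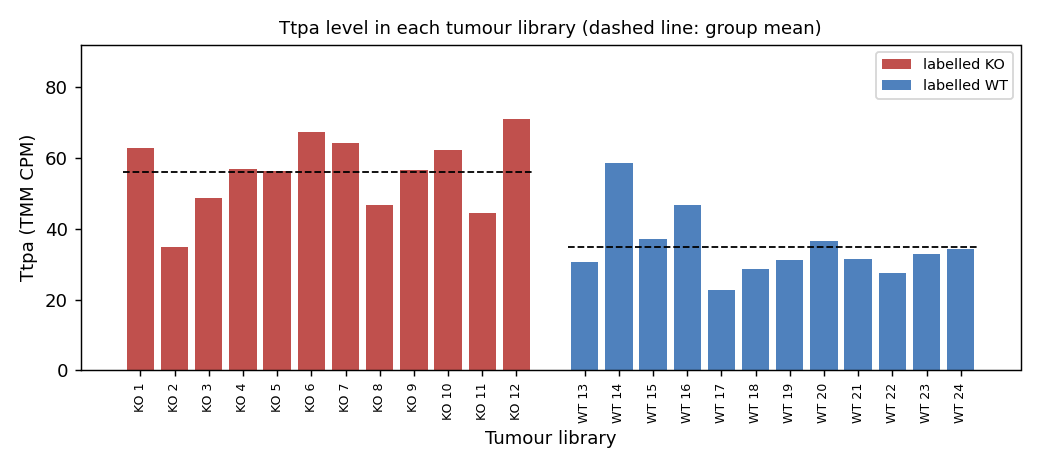
Ttpa level in TMM CPM (vertical axis) in each tumour library (horizontal axis), libraries labelled KO on the left and labelled WT on the right, with each group's mean as a dashed line. The means were 56.0 CPM labelled KO and 34.8 CPM labelled WT, and KO 2 and WT 14 are the libraries that lie farthest towards the other group.

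The size of the Ttpa difference moved little with single tumours. It lay between 0.64 (without WT 17) and 0.78 (without WT 14) on the log2 scale when each of the 24 libraries was left out in turn. With each library's length tilt as a covariate the difference was 0.61 ± 0.14 (SE). Ttpa was chosen on this contrast, so these values describe its size and test nothing.

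Liver transcripts are the textbook setting of Ttpa, so hepatocyte markers were read beside it. Of 10 such markers, 3 were tested, and none was at 0 in all libraries. Alb, serum albumin, reached at most 0.80 CPM in a library labelled KO and 0.44 CPM in one labelled WT, and Ttr, transthyretin, had 0 reads labelled KO and 2 labelled WT. The summed level of the list was 2.45 to 47.3 CPM labelled KO (median 12.7 CPM) and 0.93 to 134 CPM labelled WT (median 42.5 CPM). Nearly all of it came from Fgb, a fibrinogen chain, which reached 45.5 CPM labelled KO and 131 CPM labelled WT. Ahsg, fetuin A, reached 1.10 CPM labelled KO and 9.16 CPM labelled WT. Of the 3 tested markers 1 had a positive log2 difference, and 0 were past the threshold. Ttpa was compared with the score of this list within the groups, among 220 marker relations of which 0 passed. The part of hepatocyte transcripts in the Ttpa level was not tested beyond that.

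Next to Ttpa on chromosome 4 lies Ggh, gamma-glutamyl hydrolase, an enzyme of folate turnover whose start is 34.1 kb away on the same strand. Ggh averaged 58.9 ± 7.57 CPM labelled KO and 48.2 ± 8.54 CPM labelled WT (SD, n = 12 each), a log2 difference of 0.29 ± 0.09 (SE) that was not past the threshold (edgeR adjusted p = 0.136), and 11 of the 12 KO values exceeded the WT median. The other 5 tested genes within 1 Mb were not past it either. Rmdn1 differed by 0.23 ± 0.13 (adjusted p = 0.337), Wwp1, a ubiquitin ligase, by 0.06 ± 0.10 (adjusted p = 0.770), and Atp6v0d2, a proton pump subunit, by 0.45 ± 0.44 (adjusted p = 0.587). Cpne3 differed by -0.17 ± 0.10 (adjusted p = 0.373) and LOC108168933 by -0.24 ± 0.28 (adjusted p = 0.650), and for Cpne3 the sign turned to 0.02 with the length tilt as a covariate. None of these neighbours was among the genes whose levels followed Ttpa most closely from tumour to tumour. By the mean of the within-group correlations (Pearson r of log2 CPM, 12 libraries in each group, 14305 genes compared), those were Ppp1ccb (r of 0.85 labelled KO and 0.67 labelled WT), Cdc42 (0.84 and 0.67), Commd10 (0.70 and 0.77), Dhrs1 (0.75 and 0.68) and D830050J10Rik (0.73 and 0.64). They are the highest of many, all read from the same libraries, and are given as a description. The same holds for the closest genes of Gpx3, Slc7a11 and Nqo1 given below, each picked from 14305 genes.

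None of the 9 antioxidant genes was past the threshold between the groups in edgeR's quasi-likelihood test, a Benjamini-Hochberg adjusted p of 0.05 over all 15820 genes. Over all tested genes 0.316% were past it, with 0.177% higher and 0.139% lower where labelled KO. With the length tilt as a covariate 0.0569% of all genes and 0 of the 9 were past it. DESeq2 and limma voom, which called 2.64% and 0.436% of all genes, also called 0 of the 9. At an unadjusted p under 0.05, 4 of the 9 differed, Gpx1, Slc7a11 and Srxn1 towards higher and Gclc towards lower levels in the libraries labelled KO, against 18.9% of all tested genes (10% higher and 8.9% lower). The ranges of both groups overlapped for all 10 genes, and failed to overlap for 0.0506% of all genes tested. The log2 difference was positive for 7 of the 9, with a median of 0.17, against 51.3% positive and a median of 0.01 over all genes. The median of the 9 was 0.042 without KO 12 and 0.024 with the tilt as a covariate, when 6 of the 9 were positive. Several cell type markers, though not all, were also higher on average where labelled KO. Myoepithelium markers were positive for 1 of 7 genes. Endothelium markers were positive for 5 of 6, with a median sum of 83.9 CPM labelled KO and 100 CPM labelled WT. Alveolar milk markers were positive for 7 of 7 genes, 2 of them past the threshold. Their summed levels were 9609 to 68552 CPM labelled KO (median 13832 CPM, highest in KO 7) and 3635 to 22460 CPM labelled WT (median 10269 CPM). Macrophage markers were positive for 8 of 8, at 700.2 to 1954 CPM labelled KO and 441 to 1364 CPM labelled WT, and fibroblast markers for 7 of 7, at 616 to 3640 CPM labelled KO and 881 to 3437 CPM labelled WT. The part of these cells in the differences of the 9 genes was not tested.

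**Figure D2:**
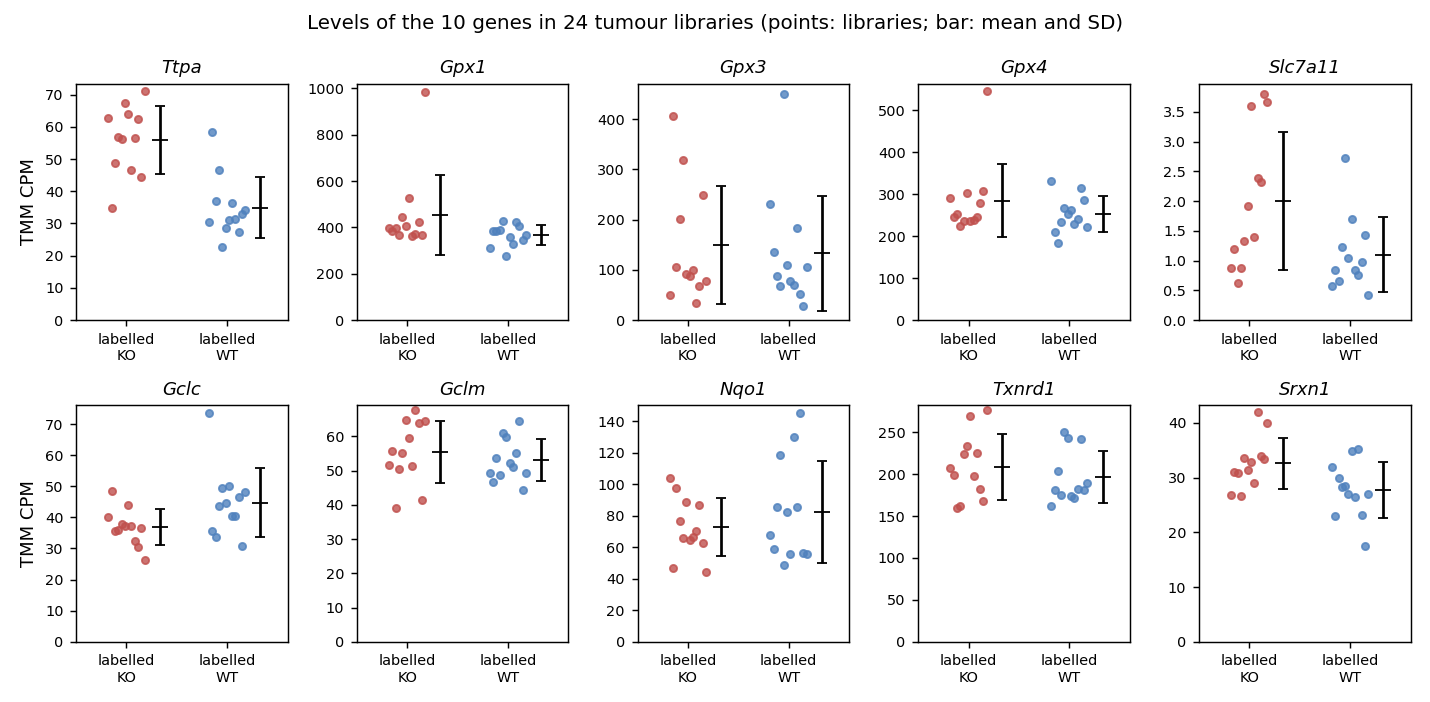
Level in TMM CPM (vertical axes, each from 0) of the 10 genes in the libraries labelled KO (left in each panel) and labelled WT (right), with points for libraries and bars for the mean and SD of 12 libraries. The groups overlap in every panel, KO 12 lies far above the other points for Gpx1 and Gpx4, and Gpx3 spreads most widely within both groups.

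Divided by exon length, so that genes can be compared with each other, the levels covered a wide range. Gpx1 was the most abundant at 433 ± 166 CPM per kilobase labelled KO and 351 ± 42.9 labelled WT (SD, n = 12 each), followed by Gpx4 at 194 ± 59.4 labelled KO and 172 ± 28.8 labelled WT. Gpx3 stood at 92.3 ± 73.2 labelled KO and 82.1 ± 70.9 labelled WT, and Txnrd1 at 51.9 ± 9.68 labelled KO and 48.8 ± 7.73 labelled WT. The peroxidases thus headed the order. Gclm, Nqo1, Ttpa, Gclc and Srxn1 lay between 9.57 and 26.8 CPM per kilobase on average in the libraries labelled KO and between 8.13 and 25.6 in those labelled WT. Slc7a11 was the least abundant by far, at 0.213 ± 0.123 labelled KO and 0.117 ± 0.0666 labelled WT. The ranges of neighbours in this order did not overlap between Txnrd1 and Gclm or between Srxn1 and Slc7a11 in either group, nor between Gpx1 and Gpx4 in the libraries labelled WT. All other neighbours overlapped. For Gpx1 and Gpx4 labelled KO the overlap came from KO 12 alone, the library with the strong length tilt. Within every library labelled KO, Gpx1 per kilobase stood above Gpx4. The order was the same in both groups except that Ttpa stood above Gclc labelled KO and below it labelled WT.

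The glutathione peroxidases Gpx1, Gpx3 and Gpx4 and the thioredoxin reductase Txnrd1 are selenoproteins, in which a TGA codon, elsewhere a stop, is read as selenocysteine in the active centre. These are the members whose catalysis depends on selenium, and their coding sequences around that codon are shown for this reason, 5′ to 3′ from GENCODE M21 transcripts, with the TGA in capitals. An in-frame TGA before the stop stood in 4 of the 10 genes and in 29 of 21499 mouse genes with a complete coding sequence (0.135%). It was codon 47 of 202 in Gpx1 (chromosome 9), 73 of 227 in Gpx3 (chromosome 11), 129 of 254 in Gpx4 (chromosome 10) and 612 of 614 in Txnrd1 (chromosome 10), counted from the start codon with the stop included, in the longest coding sequence of each gene.
Gpx1: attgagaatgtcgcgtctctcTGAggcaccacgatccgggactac
Gpx3: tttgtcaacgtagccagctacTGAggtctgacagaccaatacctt
Gpx4: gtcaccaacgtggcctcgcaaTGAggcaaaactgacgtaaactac
Txnrd1: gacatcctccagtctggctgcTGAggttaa
In the peroxidases the codon lies within the coding sequence, and in Txnrd1 it is the last codon but one before the stop.

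Gpx1, the abundant cytosolic peroxidase that removes hydrogen peroxide, lies on chromosome 9 at 108216279 to 108217541. Its lowest, median and highest levels were 363, 397 and 985 CPM labelled KO, against 278, 376 and 426 CPM labelled WT. The highest library labelled KO was KO 12, and the next was KO 7 at 525 CPM. The log2 difference was 0.30 ± 0.14 (SE), with a 95% interval of 0.02 to 0.58 and an edgeR adjusted p of 0.232. Gpx1 has 1045 bases of exon, and KO 12 was the library with the strong length tilt. Without KO 12 the mean labelled KO was 404 CPM, against 367 CPM labelled WT, and the log2 difference was 0.14. With the length tilt as a covariate it was 0.01 ± 0.08.

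Gpx4, which reduces lipid hydroperoxides within membranes and is the central brake on ferroptosis, was likewise highest in KO 12. It lies on chromosome 10 at 79883000 to 79892273. Annotated pseudogene copies of it exist, and whether they took reads from it was not tested. Levels were 224, 250 and 545 CPM labelled KO (lowest, median and highest), against 184, 246 and 330 CPM labelled WT. The medians were close, 6 of 12 libraries labelled KO lay above the WT median, and KO 12 was followed by KO 11 at 308 CPM. The log2 difference was 0.17 ± 0.13 (95% interval -0.09 to 0.43, adjusted p = 0.469). It was 0.04 without KO 12, and its sign turned to -0.07 ± 0.10 with the tilt as a covariate.

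**Figure D3:**
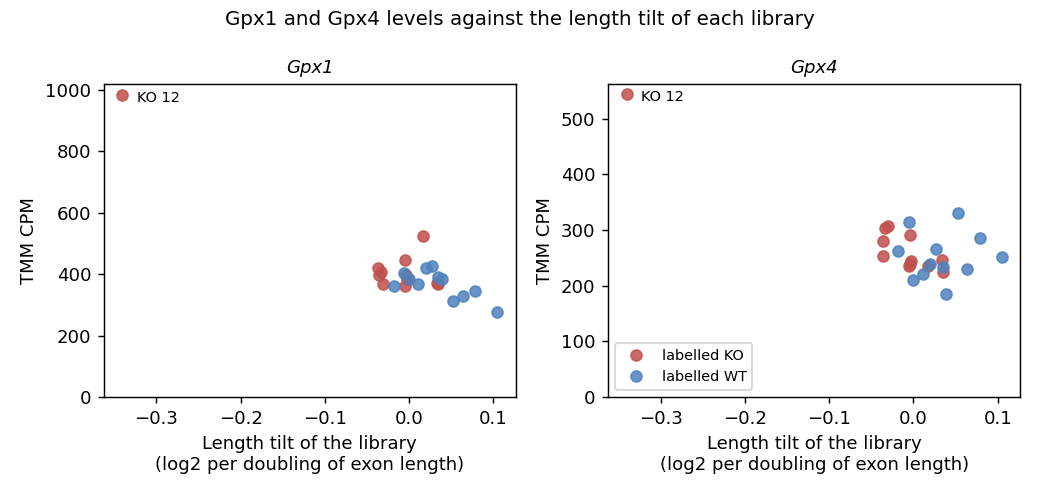
Level of Gpx1 (left) and Gpx4 (right) in TMM CPM against the length tilt of each library, in log2 units per doubling of exon length, for 12 libraries labelled KO and 12 labelled WT. KO 12, at a tilt of -0.34, holds the highest level of both genes, and the other 23 libraries cluster around a tilt of 0.

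Gpx3, the secreted plasma peroxidase, varied most of the 10 genes within the groups. It lies on chromosome 11 at 54793680 to 54801213. Its levels were 34.5, 95.6 and 407 CPM labelled KO (lowest in KO 9, highest in KO 2), against 27.9, 96.8 and 449 CPM labelled WT (lowest in WT 23, highest in WT 17). The span from lowest to highest was 11.8-fold labelled KO and 16.1-fold labelled WT, and the medians of the groups were nearly equal. The log2 difference was 0.17 ± 0.42 (95% interval -0.69 to 1.03, adjusted p = 0.848), and single tumours moved it from -0.08 (without KO 2) to 0.52 (without WT 17). With adipocyte and muscle marker scores as covariates it was -0.07. The genes whose levels followed Gpx3 most closely within both groups were Plac8 (r of 0.87 labelled KO and 0.89 labelled WT), Ankrd33b (0.80 and 0.92) and Wnt4 (0.85 and 0.86), over 12 libraries a group.

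Slc7a11, the cystine-importing subunit of system xc-, was scarce in these tumours, with 11 to 113 reads in a library. It lies on the minus strand of chromosome 3 at 50319385 to 50403947. Levels were 0.62, 1.66 and 3.81 CPM labelled KO (lowest in KO 3, highest in KO 11), against 0.43, 0.91 and 2.72 CPM labelled WT (lowest in WT 24, highest in WT 17). The point estimate was the largest of the 9 genes, at 0.85 ± 0.32 on the log2 scale (95% interval 0.19 to 1.51), and 9 of the 12 KO values exceeded the WT median. The ranges overlapped widely, and the adjusted p was 0.178. The difference was 0.58 without KO 11 and KO 12 and 0.64 with the tilt as a covariate. KO 11 also held the highest summed levels of adipocyte markers (3089 CPM) and macrophage markers (1954 CPM). Within the groups, Slc7a11 was compared with the scores of both marker lists among 220 marker relations, of which 0 passed the threshold. The part of these cells in the Slc7a11 level was not tested beyond that. Within both groups the closest genes to Slc7a11 were Clec4n (r of 0.84 labelled KO and 0.64 labelled WT), Clec4d (0.66 and 0.82) and Ythdc1 (0.71 and 0.74). Clec4n and Clec4d encode C-type lectin receptors of myeloid cells.

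The subunits of glutamate-cysteine ligase had values of opposite sign, neither past the threshold. Gclc, the catalytic subunit that carries out the rate-limiting step of glutathione synthesis (chromosome 9, 77661817 to 77701771), had levels of 26.3, 36.8 and 48.5 CPM labelled KO, against 30.8, 44.2 and 73.6 CPM labelled WT. In 11 of the 12 libraries labelled KO it lay below the WT median, with a log2 difference of -0.28 ± 0.11 (95% interval -0.52 to -0.04, adjusted p = 0.202). WT 13 was the highest library, and without it the difference was -0.19. Gclm, the modifier subunit that raises the efficiency of the catalytic one (chromosome 3, 122039206 to 122060864), had levels of 39.2, 55.4 and 67.7 CPM labelled KO, against 44.4, 51.6 and 64.6 CPM labelled WT. Its log2 difference was 0.06 ± 0.09 (95% interval -0.11 to 0.24, adjusted p = 0.698). It was 0.030 without KO 9, 0.039 without KO 12 and 0.029 with the tilt as a covariate.

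Txnrd1, cytosolic thioredoxin reductase, uses NADPH to keep thioredoxin reduced. It lies on chromosome 10 at 82669785 to 82733558, and overlapping genes including one on the opposite strand cannot be told apart from it in reads counted without strand. Levels were 159, 203 and 276 CPM labelled KO, against 162, 182 and 250 CPM labelled WT. The groups overlapped almost fully, with a log2 difference of 0.09 ± 0.10 (95% interval -0.12 to 0.29, adjusted p = 0.634). It was 0.042 without KO 7 or without KO 12, and 0.024 with the tilt as a covariate. Srxn1, sulfiredoxin, repairs overoxidised peroxiredoxins (chromosome 2, 151946738 to 151953296). Its levels were 26.6, 32.1 and 42.0 CPM labelled KO, against 17.6, 27.7 and 35.2 CPM labelled WT. Srxn1 exceeded the WT median in 10 of the 12 tumours labelled KO, with a log2 difference of 0.23 ± 0.10 (95% interval 0.03 to 0.44, adjusted p = 0.213). It was 0.17 with the tilt as a covariate.

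Nqo1, the quinone reductase most often used as a readout of NRF2, lies on the minus strand of chromosome 8 at 108114856 to 108139012. Its levels were 44.3, 68.2 and 104 CPM labelled KO (highest in KO 1), against 48.8, 75.2 and 145 CPM labelled WT (highest in WT 22). The log2 difference was -0.18 ± 0.18 (95% interval -0.55 to 0.19, adjusted p = 0.595). It was -0.078 without WT 22 and -0.072 with the tilt as a covariate. The genes closest to Nqo1 within both groups were Elmo1 (r of 0.70 labelled KO and 0.79 labelled WT), Sdc3 (0.71 and 0.77) and Tox2 (0.69 and 0.79).

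**Figure D4:**
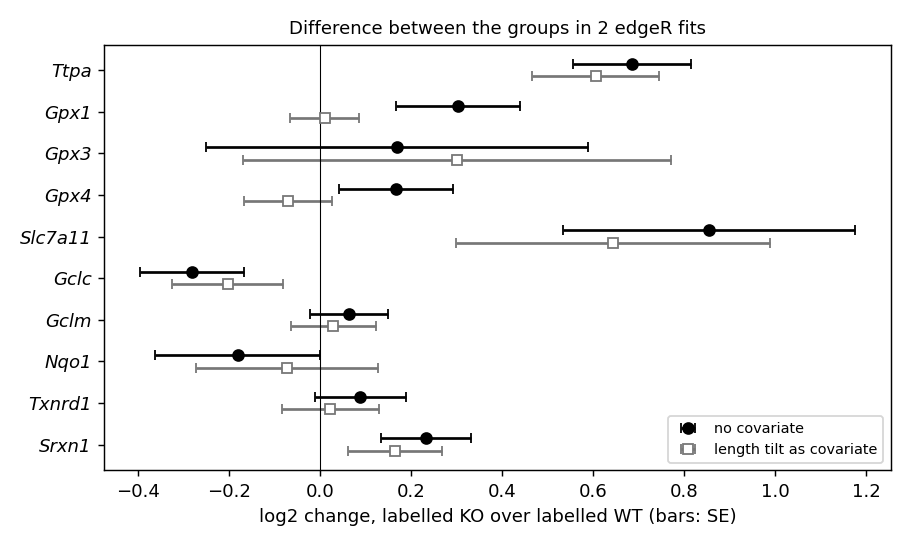
Log2 difference between libraries labelled KO and labelled WT (horizontal axis) with its SE for the 10 genes, without a covariate (filled circles) and with the length tilt of each library as a covariate (open squares). With the covariate Ttpa stood at 0.61, against 0.69 without it, Gpx1 at 0.01, against 0.30, and Gpx4 changed sign.

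Within the groups, where the comparison that chose Ttpa plays no part, each pair of the 10 genes was compared across 12 tumours. Of 90 relations (45 pairs in each group), 0 passed the threshold after Benjamini-Hochberg adjustment and 8 had an unadjusted permutation p under 0.05. The median r was 0.22 labelled KO and 0.06 labelled WT, and 24 of the 45 pairs had the same sign in both groups. Only Gclm with Txnrd1 had an r above 0.5 in both groups. Its r was 0.72 labelled KO (permutation p = 0.0085, adjusted p = 0.255; rho 0.79, p = 0.0034, adjusted p = 0.171) and 0.82 labelled WT (p = 0.0017, adjusted p = 0.0846; rho 0.62, p = 0.0381, adjusted p = 0.305). With the 2 libraries removed that lay farthest from the median of Gclm, r was 0.53 labelled KO (without KO 3 and KO 11) and 0.64 labelled WT (without WT 22 and WT 17). These are points of bulk libraries that share depth and tissue make-up, and the pair was singled out after its values were seen.

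**Figure D5:**
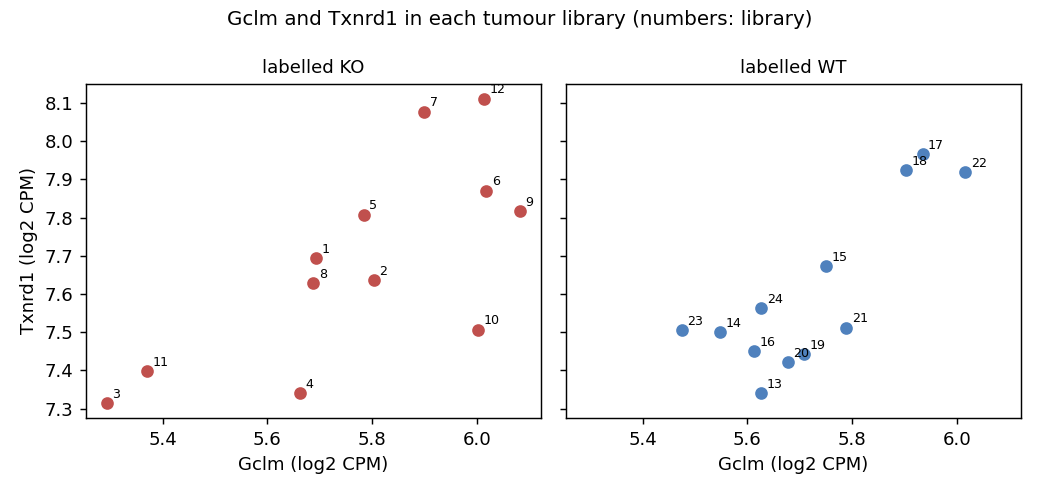
Txnrd1 (vertical axis) against Gclm (horizontal axis), both in log2 CPM, in the 12 libraries labelled KO (left) and the 12 labelled WT (right), with each point numbered by library. Both panels slope upwards, with r of 0.72 labelled KO and 0.82 labelled WT, and neither relation passed the threshold after adjustment over 90 relations.

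Among the 8 genes with an entry in the promoter table, all but Ttpa and Gclc, only Gclm and Txnrd1 held a core antioxidant response element in a promoter window, and the sites are printed because no other pair had an r above 0.5 in both groups. The motif TGACNNNGC, or GCNNNGTCA on the opposite strand, was searched in the 250 bases before each start in a RefSeq promoter table (GRCm38.p6), which held 13 promoters of these genes. It was found in 2 of the 13, against 3338 of 32851 promoters in the table (10.16%). Counted by gene, 2 of the 8 held it in some promoter, against 3112 of 27025 genes (11.52%). Whether the sites bear on the relation of Gclm with Txnrd1 was not tested. Both matches lie on the strand opposite to the gene, so the capitals, which mark them, spell the second form. In Gclm it covers bases 134 to 126 before the start (the stretch shown is chr3:122245398-122245456, plus strand), and in the second of 3 Txnrd1 promoters bases 92 to 84 (chr10:82859089-82859147, plus strand).
Gclm: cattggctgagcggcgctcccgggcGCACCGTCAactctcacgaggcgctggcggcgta
Txnrd1: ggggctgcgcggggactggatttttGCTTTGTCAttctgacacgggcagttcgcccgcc
A match to these letters is a description of sequence and not of binding. Windows without one, such as those of Srxn1 and Nqo1, say nothing of elements that lie elsewhere.

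A few further relations follow, chosen after their values were seen. Where r is given again, the 2 libraries farthest from the median of the first gene were left out. This also narrows the spread of that gene, so the change in r does not measure the weight of single tumours. Gpx1 with Gpx4 labelled KO had an r of 0.81 (permutation p = 0.0538, adjusted p = 0.355) but a rho of 0.23 (p = 0.473, adjusted p = 0.765), and r was 0.13 without KO 12 and KO 7. Gpx1 with Txnrd1 labelled KO had an r of 0.68 (p = 0.00188, adjusted p = 0.0846) and a rho of 0.61 (p = 0.0392, adjusted p = 0.305), and r was 0.35 without the same libraries. Slc7a11 with Srxn1 labelled KO had an r of 0.67 (p = 0.0158, adjusted p = 0.288) and a rho of 0.73 (p = 0.00971, adjusted p = 0.232), and here r was 0.77 without KO 3 and KO 11. For the same pair labelled WT, r was -0.12. Ttpa with Gclm had an r of 0.53 labelled KO (p = 0.0781, adjusted p = 0.355) with a rho of 0.57 (p = 0.0581, adjusted p = 0.402), and r was 0.69 without KO 2 and KO 11. Labelled WT, its r was -0.67 (p = 0.016, adjusted p = 0.288) with a rho of -0.72 (p = 0.0103, adjusted p = 0.232), and r was -0.66 without WT 14 and WT 16. These opposite signs were not tested against each other. Some pairs were alike in both groups without passing, such as Gpx3 with Gclc, with r of 0.46 labelled KO and 0.53 labelled WT.

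Relations of the 10 genes to marker scores of 11 other cell and tissue types gave 220 comparisons, of which 0 passed the threshold and 25 had an unadjusted permutation p under 0.05, with a lowest adjusted p of 0.214. The steepest was Gpx1 with luminal epithelium labelled KO, with an r of 0.91 (p = 0.00168, adjusted p = 0.214) and a rho of 0.71 (p = 0.0132, adjusted p = 0.505), and an r of 0.53 without KO 12 and KO 7. Gpx3 with luminal epithelium labelled WT had an r of 0.75 (p = 0.00389, adjusted p = 0.214) and a rho of 0.62 (p = 0.0348, adjusted p = 0.505), and r was 0.78 without WT 17 and WT 23. The signs for Ttpa differed between the groups. With adipocyte markers its r was -0.65 labelled KO (p = 0.0221, adjusted p = 0.375; rho -0.64, p = 0.0273, adjusted p = 0.505) and 0.56 labelled WT (p = 0.0598, adjusted p = 0.424; rho 0.57, p = 0.0601, adjusted p = 0.505). Without the farthest libraries those r were -0.52 (without KO 2 and KO 11) and 0.27 (without WT 14 and WT 16), and the difference between the groups was not tested.

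The wider pathways were read through 11 lists with 173 genes besides the 10, of which 158 were tested. None of the 158 was past the threshold in edgeR, and 31 were higher and 8 lower at an unadjusted p under 0.05 (10% and 8.9% of all genes). DESeq2 called 3 of the 158, Cbs, Chac1 and Selenof, and 2.64% of all genes. Those 3 calls are therefore not read as a result about the lists. The log2 difference was positive for 113 of the 158 (71.5%) with a median of 0.12, against 51.3% and 0.01 over all tested genes. Their median exon length was 2713 bases. Without KO 12 the positive share was 63.3% with a median of 0.06, against 47.1% over all genes, and with the tilt as a covariate 57.6% with a median of 0.04, against 47.2%.

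Among vitamin E handling genes, 14 of 20 were tested. Ttpa apart, whose place was fixed by its selection, 9 of 13 were positive, 8 with the tilt as a covariate. The lipid uptake genes of the list gave the highest values. Cd36, a scavenger receptor, averaged 69.5 CPM labelled KO and 30.4 CPM labelled WT (log2 difference 1.20 ± 0.47, adjusted p = 0.194), and Lpl, lipoprotein lipase, averaged 175 CPM labelled KO and 81.1 CPM labelled WT (1.11 ± 0.41, adjusted p = 0.177). Both are also adipocyte genes. Adipocyte markers were higher on average for 8 of 8 genes, with summed levels of 68.2 to 3089 CPM labelled KO and 12.3 to 793 CPM labelled WT. With adipocyte and muscle scores as covariates the differences of Cd36 and Lpl were 0.55 and 0.46, and without KO 11 they were 0.70 and 0.62. Sec14l4, a relative of the tocopherol-associated proteins, lay at the other end, at 5.37 CPM labelled KO and 12.1 CPM labelled WT (-1.17 ± 0.40, adjusted p = 0.151). Lrp1, a lipoprotein receptor, differed by -0.16, or 0.20 with the tilt as a covariate.

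In the glutathione peroxidase list 6 of 8 genes were tested and 5 were positive, also with the tilt. Gpx2, the epithelial peroxidase, averaged 5.47 CPM labelled KO and 2.17 CPM labelled WT (1.33 ± 0.61, adjusted p = 0.243), with 0.92 without KO 12, and Gpx7 differed by -0.11. Of 16 genes of glutathione synthesis and recycling, all tested, 10 were positive in both fits. Chac1, which degrades glutathione, averaged 3.73 CPM labelled KO and 2.14 CPM labelled WT (0.80 ± 0.22, adjusted p = 0.0993) and was 0.46 with the tilt as a covariate. The amino acid transporter Slc1a4 differed by -0.37 ± 0.21 (adjusted p = 0.334).

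The thioredoxin and peroxiredoxin system had 17 tested genes, 14 of them positive, but 10 with the tilt as a covariate. Prdx1, the abundant cytosolic peroxiredoxin, averaged 1015 CPM labelled KO and 788 CPM labelled WT (0.37 ± 0.12, adjusted p = 0.135), and mitochondrial Txn2 129 CPM labelled KO and 103 CPM labelled WT (0.33 ± 0.11, adjusted p = 0.145). Both were smaller with the tilt as a covariate, at 0.13 and 0.09. The sestrins Sesn3 and Sesn2 stood lowest, at -0.18 (0.01 with the tilt) and -0.14. Sesn2 starts 1.06 Mb from the start of Nr0b2, and whether that place bears on its value was not tested. Of 5 superoxide and catalase genes 4 were positive, 3 with the tilt. Mitochondrial superoxide dismutase Sod2 exceeded the WT median in all 12 tumours labelled KO, at 112 CPM labelled KO and 94.6 CPM labelled WT (0.25 ± 0.10, adjusted p = 0.189; 0.10 with the tilt). Sod3 differed by 0.42, Sod1 by 0.06 and Cat by -0.12, and the signs of Sod3 and Sod1 depended on the fit. Sod3 was -0.05 with the adipocyte and muscle scores, and Sod1 was -0.12 with the tilt. Among 21 tested glutathione transferases 17 were positive, 14 with the tilt. Mgst1, a microsomal one, averaged 589 CPM labelled KO and 458 CPM labelled WT (0.36 ± 0.12, adjusted p = 0.148; 0.14 with the tilt), Gstm2 differed by 0.53 (adjusted p = 0.321) and Gstt1 by -0.19. Gsta4, which conjugates the lipid peroxidation product 4-hydroxynonenal, averaged 7.94 CPM labelled KO and 13.5 CPM labelled WT (-0.77 ± 0.38, adjusted p = 0.268), with -0.33 without WT 13.

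The 29 NRF2 targets, which include 6 of the 10 genes, were all tested, and 19 were positive with a median of 0.11, against 17 and 0.029 with the tilt. Hmox1, heme oxygenase, gave the highest value, with 70.6 CPM labelled KO and 38.8 CPM labelled WT (0.86 ± 0.31, adjusted p = 0.168). It was 0.59 without KO 12 and 0.48 with the tilt. Cbr3, a carbonyl reductase, differed by -0.33 ± 0.16 (adjusted p = 0.257), so that Gclc, Nqo1, Cbr3 and Gsta4 had negative values in a list in which Slc7a11, Srxn1 and Hmox1 had positive ones. Of the 15 genes of NRF2 and its regulators 10 were positive, 8 with the tilt. Nfe2l3 and Maff, basic leucine zipper factors, differed by 0.39 and 0.38, but by -0.10 and -0.22 with the tilt, while Sqstm1 and Btrc differed by -0.16 and -0.10.

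NADPH feeds both arms, and 13 of its 15 supply genes were positive, but 8 with the tilt as a covariate. Idh1, cytosolic isocitrate dehydrogenase, exceeded the WT median in all 12 tumours labelled KO, at 149 CPM labelled KO and 113 CPM labelled WT (0.41 ± 0.13, adjusted p = 0.133), and the tilt left 0.39. Mthfd2 was 0.58 (adjusted p = 0.282), but 0.11 without KO 12 and -0.08 with the tilt. Mthfd1 was -0.09, and Me2 lay near 0. Of 29 tested selenoprotein and selenocysteine synthesis genes 24 were positive, 18 with the tilt, and Selenof, an endoplasmic reticulum selenoprotein, differed by 0.34 ± 0.10 (adjusted p = 0.112). Lrp8, a receptor for the selenium carrier selenoprotein P, differed by 0.45 (0.21 without KO 12). Trnau1ap, a factor that acts on selenocysteine transfer RNA, averaged 40.3 CPM labelled KO and 51.3 CPM labelled WT (-0.35 ± 0.15, adjusted p = 0.225), and Selenon differed by -0.06. Trnau1ap starts 1.24 Mb and Selenon 0.98 Mb from the start of Nr0b2. Whether that place bears on their values was not tested. Of 24 tested genes of ferroptosis and lipid peroxide control 15 were positive, 12 with the tilt. Scd1, which makes monounsaturated fatty acids, averaged 2804 CPM labelled KO and 1736 CPM labelled WT (0.69 ± 0.25, adjusted p = 0.167). Alox12 differed by -0.86 (adjusted p = 0.283), at 0.91 CPM labelled KO and 1.65 CPM labelled WT. All the same, 7 of the 12 KO values of Alox12 exceeded the WT median, and its highest WT value was 4.45 CPM. Cbs, the first enzyme of transsulfuration, averaged 1.76 CPM labelled KO and 4.92 CPM labelled WT (-1.48 ± 0.43, adjusted p = 0.110).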

How the data were processed

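RNA of frozen, homogenised tumours was sequenced with a stranded mRNA kit, per the labels' protocols. The deposited counts are whole reads per gene over exons, made with featureCounts 2.0.0 on GRCm39 per the file headers, with neither a strand nor a multiple-mapping option in the recorded command. STAR and Subread are named in the submitters' processing notes, without versions. The authors' deposited table holds log2 fold changes, log2 CPM, F and signed fold scores, p-values and adjusted p-values for 14019 genes, and only its value for Ttpa is used. Symbols were matched to gene IDs through that table and otherwise a RefSeq gene table.

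After filterByExpr and TMM scaling, the counts were tested in edgeR 4.0.16 under R 4.3.3 (quasi-likelihood, two-sided, adjusted over 15820 genes, no covariate). Standard errors were the log2 difference over the root of F. Library totals of 18789250 to 38022182 reads set the precision, and floors cover counting error only. Correlations used log2 CPM (prior count 2) and two-sided permutation tests with 100000 resamples in scipy 1.17.1. The edgeR test was checked on simulated counts, and the permutation test on random values made with and without a known relation.

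Other settings were DESeq2 1.42.0, voom with sample weights (limma 3.58.1), scaling by RLE or the upper quartile, other filters, marker scores as covariates and each library left out. The length tilt (slope of a library's log2 CPM deviations on log2 exon length) and leaving out KO 11 with KO 12 were added after seeing the data. The tilt reached 0.10 in libraries labelled WT but 0.03 in those labelled KO, so tilt and label were not independent. Fits with the tilt as a covariate may therefore also take up part of a difference between the groups. From each list the 2 highest and the 2 lowest log2 differences at a mean of at least 1 CPM were named, with Selenof added after its values were seen. The members and lists were chosen with earlier results of these data known.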

Additional observations from a re-analysis of the deposited data

How the results depend on the processing

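The Ttpa difference stayed positive under every setting tried, between 0.60 (limma voom) and 0.78 on the log2 scale, and between 0.64 and 0.78 when single libraries were left out. Ttpa was chosen on this contrast, so a kept sign is no support for it. The threshold that chose it was not passed in every fit without 1 library, nor with the length tilt as covariate. All these fits reuse the libraries that chose Ttpa, so passing it is no support either. The count of antioxidant members past the threshold was 0 under every setting, an adjusted p of 0.1 included. The count of pathway genes besides Ttpa past the threshold was 0, but 3 with DESeq2 (Cbs, Chac1 and Selenof), 1 (Selenof) with adipocyte and muscle scores as covariates, and 1 (Chac1) at an adjusted p of 0.1. DESeq2 called 2.64% of all genes, edgeR 0.316% and edgeR with the tilt covariate 0.0569%. No share of all genes is given for the marker score covariates or for an adjusted p of 0.1. The counts in those settings are not read as a result about the lists. No correlation passed with a prior count of 0.5, with RLE scaling or without the 2 farthest libraries. Over the 51 genes besides Ttpa that the naming rule gave, Selenof not among them, 1647 of 1681 values kept their sign and their side of the threshold. Chac1 and Cbs crossed it with DESeq2, and 32 values changed sign, in 13 genes, where the cause was not tested. With the length tilt as covariate these were Gpx4 (-0.070), Lrp1 (0.20), Gpx7 (0.15), Sesn3 (0.014), Sod1 (-0.12), Nfe2l3 (-0.10), Maff (-0.22), Mthfd2 (-0.084) and Cpne3 (0.021). With adipocyte and muscle scores they were Gpx3 (-0.070), Sod3 (-0.052), Me2 (0.047) and Wwp1 (-0.0045), and with limma voom Gpx7 (0.10), Sod1 (-0.012) and Me2 (0.035). Without KO 11 and KO 12 they were Sod1 (-0.052) and Maff (-0.011). With single libraries left out, Gpx3 ran from -0.077 to 0.52, Gpx7 from -0.25 to 0.13, Sod1 from -0.033 to 0.10, Maff from -0.042 to 0.54 and Me2 from -0.060 to 0.039. No paired analysis was possible because the groups share no replicate numbers. Depth limits Slc7a11 most, at 11 to 113 reads a library.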
